A study of Mus musculus with 9 samples.

Results

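The chloride channel gene Cftr and 8 other genes that move ions across epithelia were followed in the lungs of mice that express human CFTR. The genes were Cftr, the sodium channel subunit genes Scnn1a, Scnn1b and Scnn1g, the chloride channel genes Ano1 and Clcn2, the chloride-proton exchanger gene Clcn3, the anion exchanger gene Slc26a6 and the cotransporter gene Slc12a2. They were chosen by gene symbol in the array's platform annotation, and all probe sets of those symbols were taken, which gave 9 of 12393 named genes and 15 of 22690 probe sets. Lung RNA was hybridised to 9 Affymetrix mouse expression arrays, 3 for each of 3 genotypes. HO lungs carried the transgene on both alleles (SP-C-hCFTR+|+/mCftr+|+), HE lungs carried it on 1 allele (SP-C-hCFTR+|-/mCftr+|+) and WT lungs carried none (mCftr+|+). All were from adult FVB/N mice and all kept both copies of mouse Cftr, so nothing was deleted in any group. The transgene is a normal human CFTR cDNA driven by the promoter of the surfactant protein C gene Sftpc, which directs expression to respiratory epithelium per the labels and is best known from alveolar type II cells, and not by the promoter of Cftr. The comparison asks how extra human CFTR affects lung messenger RNA. The labels do not say that the 3 arrays of a group came from separate animals, so p-values measure only the spread between these samples, which may be technical.

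The label text of HO replicate 2 is inconsistent. Its title and genotype field give a homozygote, whereas its description writes SP-C-hCFTR+|-, and it was kept as HO, with an alternative that counts it as HE. WT replicate 3 has no genotype field and was grouped by its title. Array medians lay between 697.1 and 741.75, and the mean correlation of 2 arrays was 0.966 if they shared a genotype and 0.968 if they did not. The ratio of 3' to 5' signal for Actb was highest on HO replicate 2, at 1.39, and lowest on HE replicate 2, at 1.07. The lung label held against alveolar type II markers, of which 9 of 10 were measured (Lamp3 was not), with summed intensities of 237404 to 267416.3 in HO, 229792.3 to 254733.9 in HE and 215006.5 to 266736.8 in WT lungs. Sftpc, whose promoter drives the transgene, read 67718.3, 66704.8 and 55291.1 in HO, 62095.4, 55574.3 and 62777.3 in HE and 68135.2, 68142.2 and 50229.3 in WT lungs. Its groups overlapped, and the log2 difference was 0.03 ± 0.15 (SE) for HO minus WT and -0.04 ± 0.15 for HE minus WT. A second, dim Sftpc probe set read 152.7, 172.5 and 87.2 in HO, 174.1, 162.8 and 219.9 in HE and 208.7, 242.1 and 86.4 in WT lungs, and its groups overlapped too.

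CFTR is an apical chloride and bicarbonate channel that is opened by cyclic AMP-dependent phosphorylation and ATP, and its loss causes cystic fibrosis. The epithelial sodium channel, built of the alpha, beta and gamma subunits that Scnn1a, Scnn1b and Scnn1g encode, draws sodium and then water out of the airspace, and its activity together with chloride secretion sets the depth of airway and alveolar surface liquid. Slc12a2 encodes the basolateral cotransporter NKCC1, which loads epithelial cells with chloride, while Ano1, Clcn2, Clcn3 and Slc26a6 encode other chloride channels, an endosomal chloride-proton exchanger and an anion exchanger.

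The sequences just upstream of Cftr and of a pair of sodium channel subunit genes are shown because the transgene leaves out the first of them and because Scnn1b and Scnn1g, which lie near each other on chromosome 7, encode partners of the same channel. They come from RefSeq's promoter table for build GRCm38.p6, which held 7 of the 9 genes, and run 5′ to 3′ in lower case. Capitals mark the GC box GGGCGG or its reverse complement CCGCCC. The Scnn1g window has 191 bases because it was cut where the RefSeq gene begins, and the others have 250.
Cftr, GRCm38.p6 chr6:18170437-18170686, + strand: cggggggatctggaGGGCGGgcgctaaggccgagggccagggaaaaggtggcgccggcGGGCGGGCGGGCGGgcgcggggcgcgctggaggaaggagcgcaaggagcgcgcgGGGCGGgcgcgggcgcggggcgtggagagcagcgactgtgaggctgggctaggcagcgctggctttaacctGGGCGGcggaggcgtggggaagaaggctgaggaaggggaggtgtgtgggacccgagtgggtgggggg
Scnn1b, GRCm38.p6 chr7:121864788-121865037, + strand: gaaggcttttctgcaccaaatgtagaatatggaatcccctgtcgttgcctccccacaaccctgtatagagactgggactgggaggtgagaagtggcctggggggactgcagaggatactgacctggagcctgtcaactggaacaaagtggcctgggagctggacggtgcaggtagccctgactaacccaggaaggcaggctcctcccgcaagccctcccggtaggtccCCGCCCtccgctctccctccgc
Scnn1g, GRCm38.p6 chr7:121734229-121734419, + strand: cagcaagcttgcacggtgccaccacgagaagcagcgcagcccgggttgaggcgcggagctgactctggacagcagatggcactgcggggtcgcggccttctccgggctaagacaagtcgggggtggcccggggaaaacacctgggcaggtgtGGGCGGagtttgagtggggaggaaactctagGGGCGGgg

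The GC box occurred 6 times upstream of Cftr, where 3 of the copies overlap in a single run, 1 time upstream of Scnn1b and 2 times upstream of Scnn1g. It was found on either strand in 32.7% of 32851 promoter windows of 250 bases and in 30.7% of windows of 191 bases. The CCAAT box (CCAAT), the core of the cyclic AMP response element (TGACG) and the TATA box (TATAAA), searched on both strands, had 0 matches in the 3 windows, against 33.8%, 17.8% and 12.4% of all windows of 250 bases with at least 1 match, and 28.5%, 15.3% and 9.51% of all windows of 191 bases. A match of letters is a description and does not show that a factor binds.

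Of the 15 probe sets, 13 passed a filter on mean signal (mean log2 intensity of at least 8.90), and they cover 8 of the 9 genes. The only probe set of Clcn2 and the second probe set of Cftr were below it. No member differed between genotypes at the threshold of a Benjamini-Hochberg adjusted p of 0.05 over all 13576 probe sets tested by limma. The lowest adjusted p among the members was 0.992 for HO minus WT and 0.9997 or more for each other difference, and 0 of 13576 probe sets (0%) passed in any of the 4 differences or in the moderated F test over genotypes. At an unadjusted p of 0.05, 0 of 13 members were below the threshold for HO minus WT, where 4.49% of all probe sets were, 3 of 13 for HE minus WT, against 3.11% of all, 0 of 13 for HO minus HE, against 2.56%, and 0 of 13 for the mean of HO and HE minus WT, against 4.19%. The F test over genotypes had 0 of 13 below it, against 3.09% of all. The 3 for HE minus WT were Ano1, Slc26a6 and a probe set of Slc12a2. They depended on the processing. After quantile normalization, or with a trended and robust eBayes, Slc26a6 was no longer below an unadjusted p of 0.05. After median centring only the Slc12a2 probe set was. With the replicate number as a block in limma, 1 of 13 members was below an unadjusted p of 0.05 for HO minus WT, 3 for HE minus WT, 1 for HO minus HE, 2 for the mean of HO and HE minus WT and 1 in the F test. For HO minus WT it was Clcn3 1433486_at (limma unadjusted p = 0.0302, adjusted p = 0.826), and for HE minus WT they were the same 3. For HO minus HE it was Ano1 (limma unadjusted p = 0.0428), as in the F test (limma unadjusted p = 0.0379), and for the mean of HO and HE minus WT they were Slc26a6 (limma unadjusted p = 0.0492) and Clcn3 1433486_at (limma unadjusted p = 0.0454). Over all 13576 probe sets the block gave 808, 591, 474, 772 and 588 below it in the same order, against 610, 422, 348, 569 and 420 without it. Since none passed after adjustment in either fit, the values that follow describe these arrays.

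**Figure D1:**
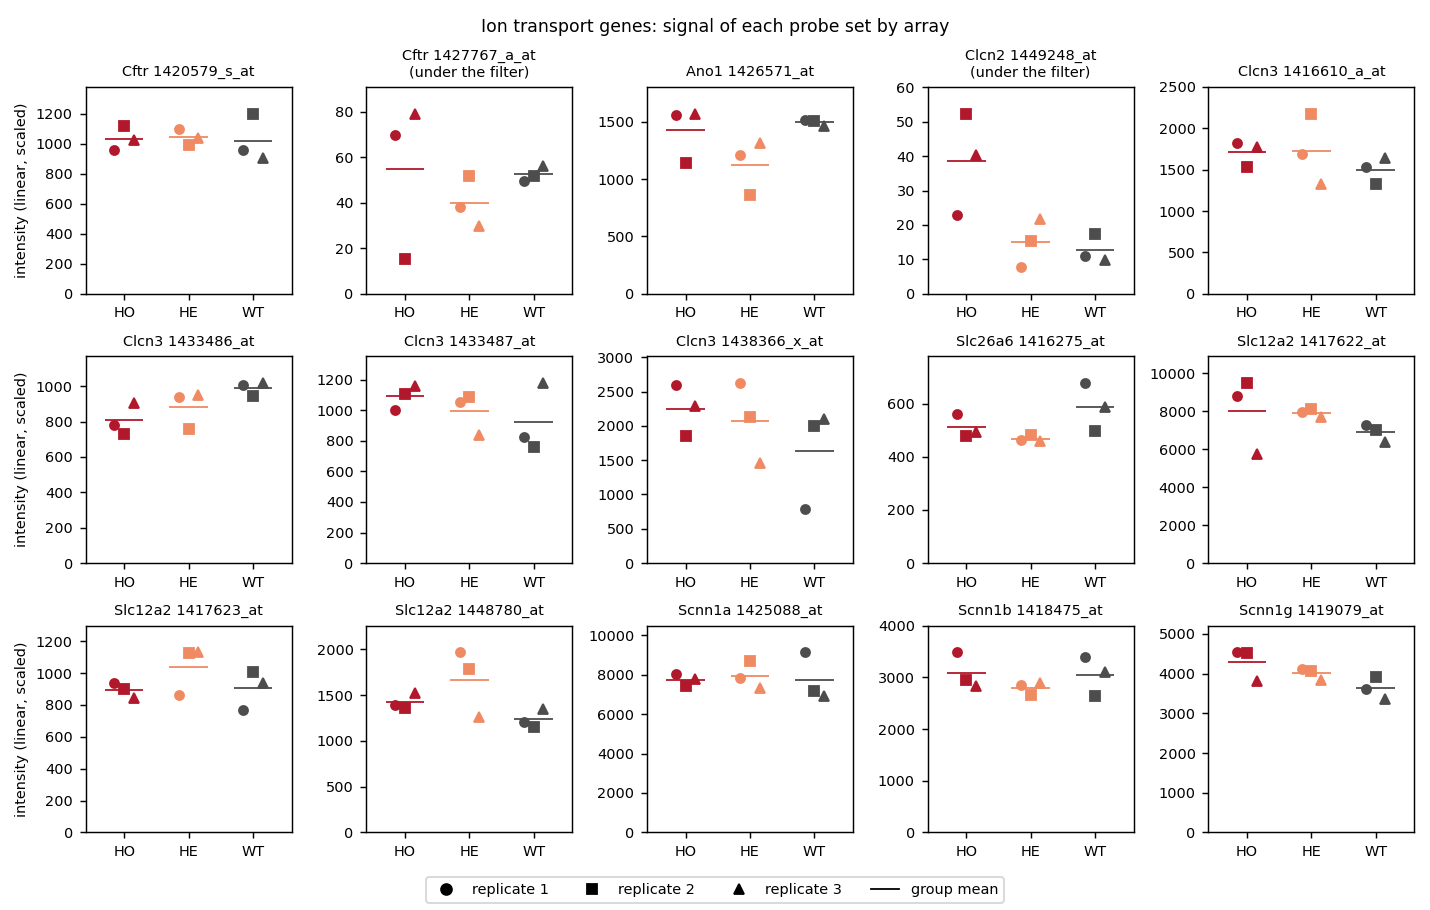
Deposited linear intensity (vertical axes, each starting at 0) of the 15 probe sets on HO, HE and WT arrays, with a marker shape for each replicate number and a line at each group mean (n = 3). Cftr 1420579_s_at lies between 903.5 and 1200.6 on all 9 arrays, Ano1 is lower on the 3 HE arrays than on the 3 WT arrays, and Clcn3 1438366_x_at has a lone low value of 784.7 on WT replicate 1.

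Mouse Cftr is the endogenous counterpart of the transgene. Its measured probe set (1420579_s_at, whose suffix marks probes that may match transcripts of more than 1 gene) read 959.7, 1118.9 and 1028.1 in HO, 1098.2, 995.5 and 1038.7 in HE and 958.3, 1200.6 and 903.5 in WT lungs. The WT arrays held both the lowest and the highest value, so the HO and HE ranges lay inside the WT range. The log2 difference was 0.03 ± 0.14 (SE, n = 3 per group) for HO minus WT, with a 95% interval of -0.28 to 0.33, and 0.04 ± 0.14 for HE minus WT, with an interval of -0.26 to 0.35. On a linear scale the HO over WT ratio was 1.02, with an interval of 0.825 to 1.26. HO and HE differed by -0.01 ± 0.14. Within replicate numbers 1, 2 and 3, HO minus WT was 0.002, -0.10 and 0.19, and without WT replicate 2 or WT replicate 3 the pooled value became 0.15 or -0.05. Whether the probes of this set bind human CFTR transcripts was not tested, so the values do not check the genotype labels. In these bulk samples fewer cells of a type and less RNA per cell cannot be told apart, here and for all values that follow.

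The second Cftr probe set (1427767_a_at, whose suffix marks probes shared by several transcripts of 1 gene) was dim. It read 69.8, 15.3 and 79.0 in HO, 37.9, 51.8 and 29.9 in HE and 49.6, 51.7 and 56.0 in WT lungs, with a floor of 25.5 set at the 5th percentile of all values. HO replicate 2 was under the floor and the other HO arrays were the highest of the 9. The 2 Cftr probe sets had a negative correlation across arrays that did not pass the threshold, with a Pearson r of -0.43 (exact permutation p = 0.252, adjusted p = 0.641 over 13 pairs) and a Spearman rho of -0.52 (exact p = 0.162, adjusted p = 0.526). It was -0.29 without HO replicate 2, the array under the floor, -0.64 without WT replicate 2, -0.68 without the 2 arrays farthest from the median and -0.33 with means of the replicate numbers removed.

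The probe sets whose log2 signal followed Cftr 1420579_s_at most closely over the 9 arrays, among 12475 measured probe sets with 1 symbol, were those of Vti1b (r = 0.944), Mtcp1 (r = 0.942), Rpl35 (r = 0.942), Wdr43 (r = 0.935) and Zfp810 (r = 0.934). These are the highest of many coefficients from arrays that share their scaling, and they carry no p. Rpl35, a ribosomal protein gene, read 12967.3, 16076 and 12528.6 in HO, 14927.3, 13598.4 and 14231.6 in HE and 11929.5, 16632.7 and 10677.3 in WT lungs. As for Cftr, its highest value was on WT replicate 2 and its lowest on WT replicate 3. Of the 5 genes, 4 were again among the 5 closest after quantile normalization and 4 after median centring.

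The 3 sodium channel subunits varied little between arrays: their within-group SD was 0.148 for Scnn1a, 0.145 for Scnn1b and 0.109 for Scnn1g on the log2 scale, each below the median of 0.197 over all probe sets tested. Scnn1a, the alpha subunit, read 8055.5, 7431.2 and 7763.8 in HO, 7826.1, 8693.0 and 7347.1 in HE and 9129.9, 7167.9 and 6921.5 in WT lungs. The WT arrays again spanned the whole range. The difference was 0.01 ± 0.14 for HO minus WT (95% interval -0.30 to 0.32) and 0.05 ± 0.14 for HE minus WT (-0.26 to 0.35).

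Scnn1b, the beta subunit, read 3482.9, 2946.9 and 2841.6 in HO, 2844.0, 2654.8 and 2901.5 in HE and 3405.0, 2641.9 and 3105.1 in WT lungs. The groups overlapped, with replicate 1 the highest HO and the highest WT array. Its difference was 0.02 ± 0.14 for HO minus WT, between -0.08 and 0.10 with single arrays left out, and -0.12 ± 0.14 for HE minus WT, between -0.22 and -0.03.

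Scnn1g, the gamma subunit, read 4533.2, 4525.8 and 3810.9 in HO, 4106.3, 4072.2 and 3833.2 in HE and 3618.5, 3913.2 and 3364.1 in WT lungs. Replicate 1 and replicate 2 of HO were the highest of the 9 arrays, but WT replicate 2 was above HO replicate 3 and HE replicate 3, so neither transgenic group was apart from WT. The group means were 4290 ± 415 in HO, 4004 ± 149 in HE and 3632 ± 275 in WT lungs (SD, n = 3 each). The log2 difference was 0.24 ± 0.13 for HO minus WT, with an interval of -0.04 to 0.52 (limma unadjusted p = 0.0856, adjusted p = 0.992), and 0.14 ± 0.13 for HE minus WT (-0.13 to 0.42), which was 0.09 without WT replicate 3. Both differences were positive in each replicate number, at 0.33, 0.21 and 0.18 for HO minus WT and 0.18, 0.06 and 0.19 for HE minus WT. The within-group SD of Scnn1g was at the 9.5th percentile of all probe sets tested.

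No correlation between the subunits passed the threshold, and single arrays changed each r. Pearson's r was 0.30 for Scnn1a with Scnn1b (exact permutation p = 0.440, adjusted p = 0.716), 0.13 for Scnn1a with Scnn1g (exact p = 0.729, adjusted p = 0.862) and 0.0006 for Scnn1b with Scnn1g (exact p = 0.999, adjusted p = 0.999). Spearman's rho was 0.22 (exact p = 0.581), 0.27 (exact p = 0.493) and 0.02 (exact p = 0.982) for the same pairs, with adjusted p from 0.755 to 0.982. Without the 2 arrays farthest from the median, r was 0.09, 0.21 and -0.36, and with the means of the replicate numbers removed it was 0.03, -0.20 and 0.08. Leaving out single arrays gave r from -0.08 (without WT replicate 1) to 0.61 (without HE replicate 2) for Scnn1a with Scnn1b. The range was -0.25 (without WT replicate 3) to 0.52 (without WT replicate 1) for Scnn1a with Scnn1g and -0.47 (without HO replicate 1) to 0.23 (without WT replicate 1) for Scnn1b with Scnn1g.

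**Figure D2:**
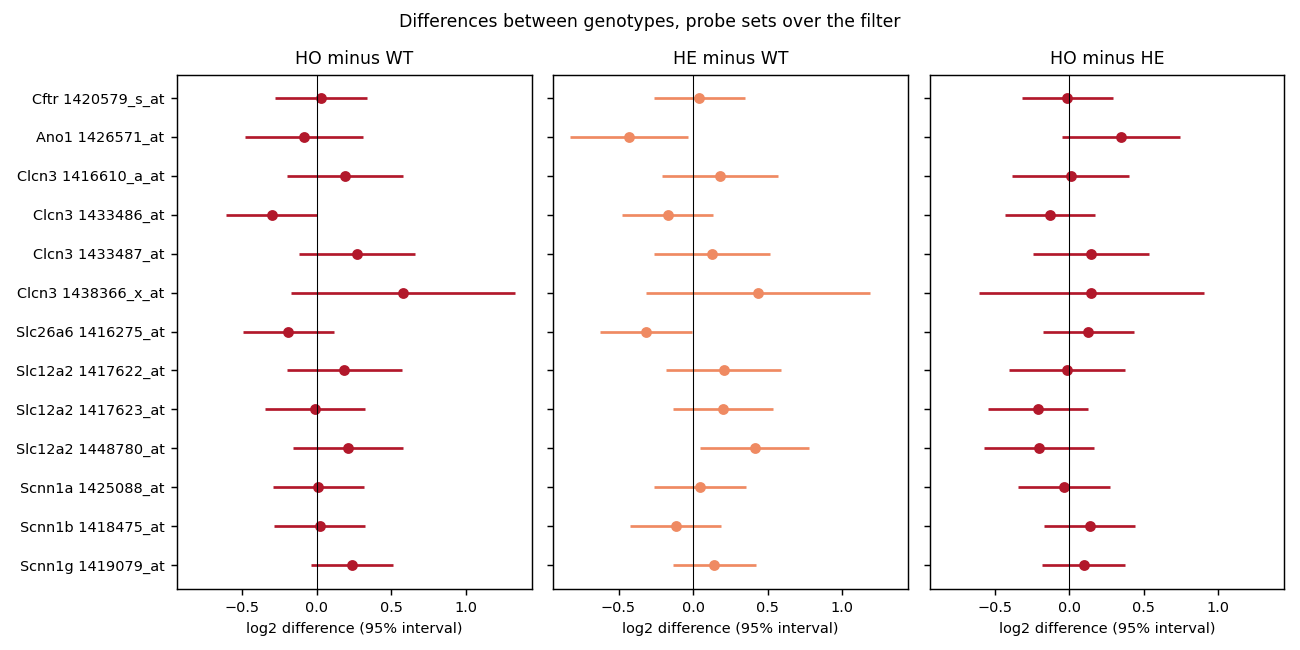
Log2 difference (points) with its 95% interval (bars) for the 13 measured probe sets, from left to right HO minus WT, HE minus WT and HO minus HE, with a line at 0. In this fit, without the replicate number as a block, all 13 intervals hold 0 for HO minus WT and for HO minus HE. For HE minus WT 10 of 13 do.

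Among the other chloride channels, Ano1 encodes a calcium-activated chloride channel found in secretory epithelium and in smooth muscle. It read 1562.6, 1143.7 and 1569.3 in HO, 1207.5, 857.2 and 1317.6 in HE and 1516.7, 1505.8 and 1461.1 in WT lungs. All 3 HE arrays were below all 3 WT arrays, and HO replicate 2 was lower than the other HO arrays and than 2 of the 3 HE arrays. The log2 difference was -0.43 ± 0.18 for HE minus WT, with an interval of -0.83 to -0.03 (limma unadjusted p = 0.0366, adjusted p = 0.9997), a ratio of 0.742 (0.563 to 0.978). It was -0.08 ± 0.18 for HO minus WT and 0.35 ± 0.18 for HO minus HE (unadjusted p = 0.0817), so the group means were not ordered by allele number. Within replicate numbers 1, 2 and 3, HE minus WT was -0.33, -0.81 and -0.15, and HO minus HE was 0.37, 0.42 and 0.25. Without HE replicate 2, HE minus WT was -0.24 and HO minus HE was 0.16. HO minus WT turned positive, at 0.07, without HO replicate 2 or with that array counted as HE, and was -0.16 without HO replicate 1 or without HO replicate 3. With HO replicate 2 counted as HE, HO minus HE was 0.49 (limma unadjusted p = 0.014, adjusted p = 0.9997).

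Smooth muscle markers also varied between arrays. All 6 listed markers were measured, with summed intensities of 15682.8 to 17094.2 in HO, 17460.5 to 21049.8 in HE and 14629.3 to 24177.3 in WT lungs. Their median log2 level relative to the WT mean was 0.14, -0.31 and -0.08 on the HO arrays, 0.13, -0.35 and 0.02 on the HE arrays and -0.08, -0.26 and 0.44 on the WT arrays. It was low on replicate 2 of each group, as Ano1 was on replicate 2 of HO and HE but not of WT. Smooth muscle was not alone in varying. The median of 7 measured cardiac muscle markers was 0.55, -0.24 and -0.25 on the HO arrays. On the HE arrays it was 0.47, -0.34 and -0.14, and on the WT arrays -0.05, 0.04 and 0.02. The part of either list in the Ano1 values was not tested.

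Clcn2 encodes a chloride channel opened by hyperpolarisation. Its probe set read 22.8, 52.3 and 40.4 in HO, 7.8, 15.4 and 21.7 in HE and 10.9, 17.5 and 9.8 in WT lungs, and 7 of 9 arrays were at or under the floor of 25.5. The 2 arrays above the floor were HO replicate 2 and HO replicate 3. With all WT and HE arrays at or under the floor, whose set values have no spread, no fold or test is given for Clcn2.

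Clcn3 encodes ClC-3, a chloride-proton exchanger of endosomes and synaptic vesicles, and its 4 probe sets disagreed. The probe set 1433486_at read 782.9, 729.7 and 905.9 in HO, 941.4, 759.9 and 951.8 in HE and 1008.8, 946.6 and 1016.8 in WT lungs. All 3 HO arrays were below all 3 WT arrays, while HE overlapped WT. The log2 difference was -0.30 ± 0.14 for HO minus WT, with an interval of -0.61 to 0.001 (limma unadjusted p = 0.0509, adjusted p = 0.992), and -0.17 ± 0.14 for HE minus WT (-0.07 without HE replicate 2). It was negative in each replicate number, at -0.37, -0.38 and -0.17 for HO minus WT.

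The other 3 probe sets of Clcn3 had positive differences. The probe set 1433487_at, which the annotation draws from the same sequence record as 1433486_at, read 1005.4, 1108.8 and 1160.0 in HO, 1053.3, 1085.6 and 842.0 in HE and 826.8, 759.5 and 1178.3 in WT lungs, a difference of 0.27 ± 0.18 for HO minus WT. Here WT replicate 3 was the highest array and the other WT arrays were the lowest, and the difference was 0.14 without WT replicate 2 and 0.46 without WT replicate 3 (limma unadjusted p = 0.0155, adjusted p = 0.928). The probe set 1416610_a_at read 1818.0, 1531.2 and 1778.2 in HO, 1683.1, 2174.1 and 1327.4 in HE and 1530.7, 1329.7 and 1637.1 in WT lungs, a difference of 0.19 ± 0.18 for HO minus WT (0.11 without WT replicate 2). The probe set 1438366_x_at, whose suffix marks probes resembling other sequences, read 2599.3, 1857.0 and 2288.4 in HO, 2621.8, 2130.9 and 1456.5 in HE and 784.7, 2003.5 and 2097.7 in WT lungs. WT replicate 1 stood well below the other 8 arrays. This probe set had the largest pooled difference of the members, 0.58 ± 0.34 for HO minus WT and 0.43 ± 0.34 for HE minus WT, and both rest on that array: without it they were 0.12 and -0.03, and without WT replicate 3 they were 0.83 and 0.68. Its within-group SD was 0.543, at the 98.0th percentile of all probe sets tested.

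Across the 9 arrays 3 of the 6 pairs of Clcn3 probe sets had a negative r, each of them a pair with 1433486_at. Its r was -0.49 with 1416610_a_at (exact permutation p = 0.177), -0.36 with 1433487_at (exact p = 0.345) and -0.39 with 1438366_x_at (exact p = 0.323), with rho of -0.55, -0.22 and -0.37. With single arrays left out these r stayed negative, from -0.72 to -0.27, from -0.63 to -0.24 and from -0.49 to -0.11. Leaving out arrays keeps the differences between groups, which had opposite signs. With the group means removed, the 3 r were -0.35, -0.0096 and -0.07. The pair 1416610_a_at and 1433487_at had r = 0.67 (exact p = 0.0474, adjusted p = 0.616) and rho = 0.52 (exact p = 0.162), and r was 0.71 without the 2 arrays farthest from the median and 0.76 with the means of the replicate numbers removed. The pair 1416610_a_at and 1438366_x_at had r = 0.42 (exact p = 0.267) and rho = 0.77 (exact p = 0.0214, adjusted p = 0.278). The pair 1433487_at and 1438366_x_at had r = 0.55 (exact p = 0.105). None of the 13 pairs computed in this family of probe sets and subunits passed after Benjamini-Hochberg adjustment.

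**Figure D3:**
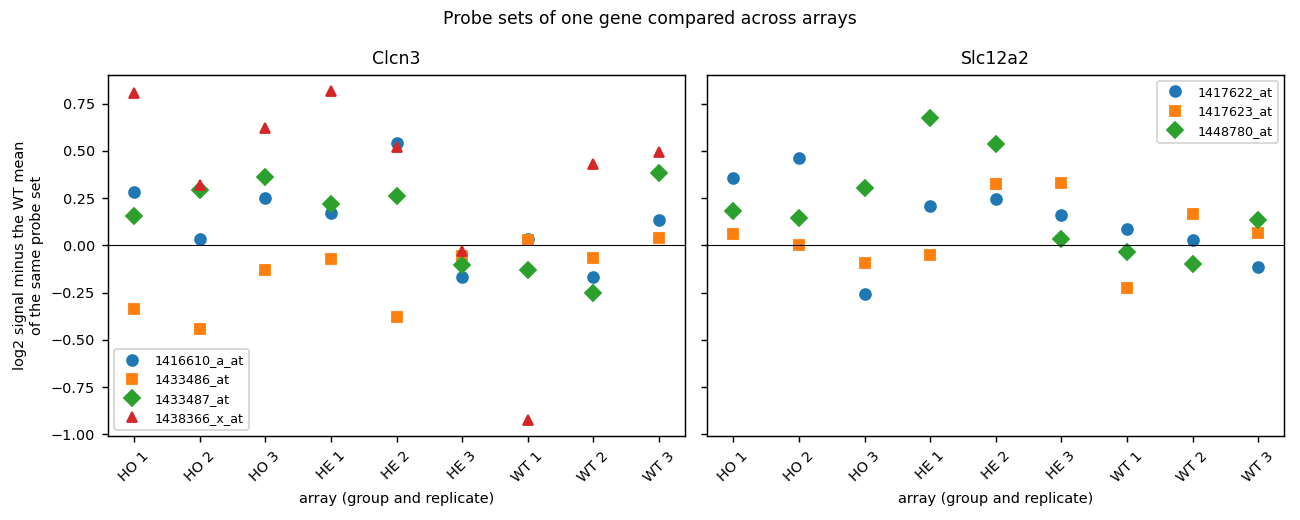
Log2 signal of each probe set of Clcn3 (left) and Slc12a2 (right) on the 9 arrays, from HO to HE to WT, relative to the WT mean of the same probe set at 0. On the HO arrays Clcn3 1433486_at lies below 0 and the other 3 probe sets lie above it, and Clcn3 1438366_x_at is lowest on WT replicate 1.

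Slc26a6 encodes an exchanger of chloride for bicarbonate, oxalate and other anions. It read 561.1, 479.9 and 495.0 in HO, 464.4, 480.6 and 458.6 in HE and 677.0, 496.8 and 587.3 in WT lungs. All 3 HE arrays were below all 3 WT arrays, by a narrow gap between 480.6 on HE replicate 2 and 496.8 on WT replicate 2, and the HO arrays overlapped both groups. The means were 512 ± 43.2 in HO, 468 ± 11.4 in HE and 587 ± 90.1 in WT lungs (SD, n = 3 each). The log2 difference was -0.32 ± 0.14 for HE minus WT, with an interval of -0.62 to -0.0091 (limma unadjusted p = 0.0446, adjusted p = 0.9997), and -0.19 ± 0.14 for HO minus WT, which was -0.08 without WT replicate 1 and -0.30 without WT replicate 2. The mean of HO and HE minus WT was -0.25 ± 0.12 (unadjusted p = 0.0606), and -0.14 without WT replicate 1. HE minus WT was -0.54, -0.05 and -0.36 within replicate numbers 1, 2 and 3, and without WT replicate 1, the highest array, it was -0.21.

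Slc12a2 had 3 measured probe sets, which the annotation draws from the same sequence record. The probe set 1448780_at read 1395.9, 1360.6 and 1517.3 in HO, 1964.8, 1786.6 and 1258.1 in HE and 1202.3, 1148.2 and 1352.6 in WT lungs. All 3 HO arrays were above all 3 WT arrays, by a narrow gap, whereas HE held the 2 highest arrays and also HE replicate 3, which lay inside the WT range. The log2 difference was 0.41 ± 0.17 for HE minus WT, with an interval of 0.05 to 0.78 (limma unadjusted p = 0.0306, adjusted p = 0.9997), and 0.21 ± 0.17 for HO minus WT. Within replicate numbers 1, 2 and 3 HE minus WT was 0.71, 0.64 and -0.10, and HO minus WT was 0.22, 0.24 and 0.17. HE minus WT was 0.28 without HE replicate 1 and 0.61 without HE replicate 3.

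The probe set 1417622_at of Slc12a2 read 8773.1, 9467.8 and 5745.1 in HO, 7935.5, 8133.1 and 7671.9 in HE and 7285.0, 6995.6 and 6348.6 in WT lungs. All 3 HE arrays were above all 3 WT arrays, and HO held the 2 highest arrays and, in HO replicate 3, the lowest. Its difference was 0.20 ± 0.18 for HE minus WT and 0.19 ± 0.18 for HO minus WT, and HO minus WT was 0.10 without HO replicate 1, 0.05 without HO replicate 2 or with that array counted as HE, and 0.41 without HO replicate 3. The probe set 1417623_at read 937.0, 899.8 and 840.9 in HO, 865.4, 1126.0 and 1129.1 in HE and 766.7, 1005.4 and 938.7 in WT lungs, with differences of -0.01 ± 0.15 for HO minus WT and 0.20 ± 0.15 for HE minus WT, which was 0.09 without WT replicate 1 and 0.33 without HE replicate 1. The 3 probe sets thus gave HE minus WT values of 0.41, 0.20 and 0.20. Across arrays r was 0.22 for 1417622_at with 1417623_at (exact permutation p = 0.577), 0.14 for 1417622_at with 1448780_at (exact p = 0.716) and 0.04 for 1417623_at with 1448780_at (exact p = 0.926), with rho of 0.15, 0.32 and -0.17. Without the 2 arrays farthest from the median r was 0.16, 0.46 and -0.05, and with the means of the replicate numbers removed it was 0.46, 0.07 and 0.17. With the group means removed instead, r was 0.12, -0.21 and -0.48. Leaving out single arrays gave r from 0.01 to 0.34, from 0.06 to 0.31 and from -0.29 (without HE replicate 2) to 0.28.

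Taken by direction, 9 of the 13 measured probe sets were higher and 4 lower in HO than in WT lungs, where 48.8% of all 13576 were higher. The 13 probe sets stand for 8 genes, and Clcn3 and Slc12a2 supply several each. The counts and medians in this paragraph are therefore not over separate genes. The median difference was 0.03 against -0.005 over all, 0.07 against 0.004 after quantile normalization and 0.08 against 0.05 after median centring. HE minus WT had the same split of 9 and 4 (47.8% of all higher), with a median of 0.13 against -0.007 over all, and HO minus HE had 7 higher and 6 lower (51.4% of all higher), with a median of 0.009 against 0.005. HO minus WT and HE minus WT share the 3 WT arrays. The groups did not overlap for 2 of 13 probe sets between HO and WT (Clcn3 1433486_at and Slc12a2 1448780_at), where 8.88% of all probe sets did not overlap. They did not overlap for 3 of 13 between HE and WT (Ano1, Slc26a6 and Slc12a2 1417622_at), where 7.70% of all did not, for 0 of 13 between HO and HE, where 6.66% did not, and for 0 of 13 between both transgenic groups and WT, where 2.08% did not. Differences had the same sign in all 3 replicate numbers for 5 of 13 probe sets (38.5%) for HO minus WT, against 27.4% of all, for 6 of 13 (46.2%) for HE minus WT, against 24.5%, and for 2 of 13 (15.4%) for HO minus HE, against 22.4%.

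The replicate numbers, which also part the source names into 3 sets, were a further source of variation. In a moderated F test for the number beside genotype, 0 of 13 members passed at an adjusted p of 0.05, against 2 of 13576 probe sets (0.0147%). At an unadjusted p of 0.05, 0 of 13 members were below the threshold and 12.0% of all probe sets were. The lowest unadjusted p among the members was 0.0794, for Ano1 (adjusted p = 0.467).

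Other genes of ion and water transport were read from 7 lists. Of 108 listed genes 82 were named on the array and 55 measured, and each gene was read from its brightest probe set. None passed at an adjusted p of 0.05 in any difference by limma. For HO minus WT 31 were higher and 24 lower, and 1 of 55 was below an unadjusted p of 0.05, against 4.24% of all 8184 genes. For HE minus WT 29 were higher and 26 lower, and 0 of 55 were below it, against 3.19% of all. For HO minus HE 30 were higher and 25 lower, and 1 of 55 was below it, against 2.28% of all. The mean of HO and HE minus WT had 27 higher and 28 lower, with 1 of 55 below it, against 4.13% of all.

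The gene below it for HO minus WT was Atp1b2, a beta subunit of the sodium pump, at -0.34 ± 0.14 (limma unadjusted p = 0.0298, adjusted p = 0.992). It was -0.27 ± 0.14 for HE minus WT. Atp1b2 was also the gene below it for the mean of HO and HE minus WT, at -0.31 ± 0.12 (limma unadjusted p = 0.0256, adjusted p = 0.9997). The sodium pump and sodium-proton exchange list had 6 genes higher and 3 lower for HO minus WT, with a median of 0.09, and Fxyd1, a regulator of the pump, was 0.15 ± 0.14. For HE minus WT 3 of the 9 were higher and 6 lower, with a median of -0.02.

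Among 12 other chloride channels and anion exchangers, 7 were higher and 5 lower for HO minus WT and 6 were higher and 6 lower for HE minus WT, with medians of 0.02 and -0.0006. Clcn5, an endosomal chloride-proton exchanger, was -0.31 ± 0.17 for HO minus WT, and the bicarbonate cotransporter gene Slc4a5 was 0.30 ± 0.18. The sulfate transporter gene Slc26a2 was 0.35 ± 0.15 for HO minus HE (limma unadjusted p = 0.0343, adjusted p = 0.9998) and -0.30 ± 0.15 for HE minus WT, while its other probe set was 0.11 and 0.14. Slc26a4, the anion exchanger pendrin, was -0.30 ± 0.21 for HE minus WT.

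The 6 measured genes of cation-chloride cotransport, the family of Slc12a2, and its kinases had 4 higher and 2 lower for HO minus WT and 5 higher and 1 lower for HE minus WT, with medians of 0.08 and 0.17. Slc12a9 was 0.33 ± 0.21 for HO minus WT, and Slc12a4, a potassium-chloride cotransporter gene, was 0.26 ± 0.14 for HE minus WT. Among 13 regulators of the sodium channel 8 were higher and 5 lower in both differences, with medians of 0.02 and 0.01. Nedd4l, a ubiquitin ligase that removes the channel from the membrane, was 0.25 ± 0.18 for HO minus WT. Tsc22d3, a glucocorticoid-induced gene, was 0.32 ± 0.23 for HO minus WT and 0.40 ± 0.23 for HE minus WT, and the protease gene Prss8, whose product activates the channel, was -0.19 ± 0.16 for HE minus WT. Tmprss2, another protease gene, was -0.13 ± 0.12 for HO minus WT, with its other probe set at -0.55.

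The 5 epithelial potassium channel genes had 1 higher and 4 lower for HO minus WT and 4 higher and 1 lower for HE minus WT, with medians of -0.05 and 0.07. Kcnk5 was 0.19 ± 0.17 and Kcne2 was -0.18 ± 0.16 for HO minus WT. Of 3 aquaporins, Aqp1, the water channel of endothelium, was 0.13 ± 0.12 for HO minus WT and 0.03 ± 0.12 for HE minus WT. Aqp5, the water channel of alveolar type I cells, was -0.22 ± 0.15 for HE minus WT and -2.1e-06 ± 0.15 for HO minus WT. Among 7 genes of cyclic AMP and purinergic signalling 3 were higher and 4 lower for HO minus WT, with a median of -0.13, and Prkar2a, a regulatory subunit of protein kinase A, was -0.44 ± 0.22 (limma unadjusted p = 0.0641). For HE minus WT 2 were higher and 5 lower, with a median of -0.007, and the phosphodiesterase gene Pde4a was -0.27 ± 0.17.

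**Figure D4:**
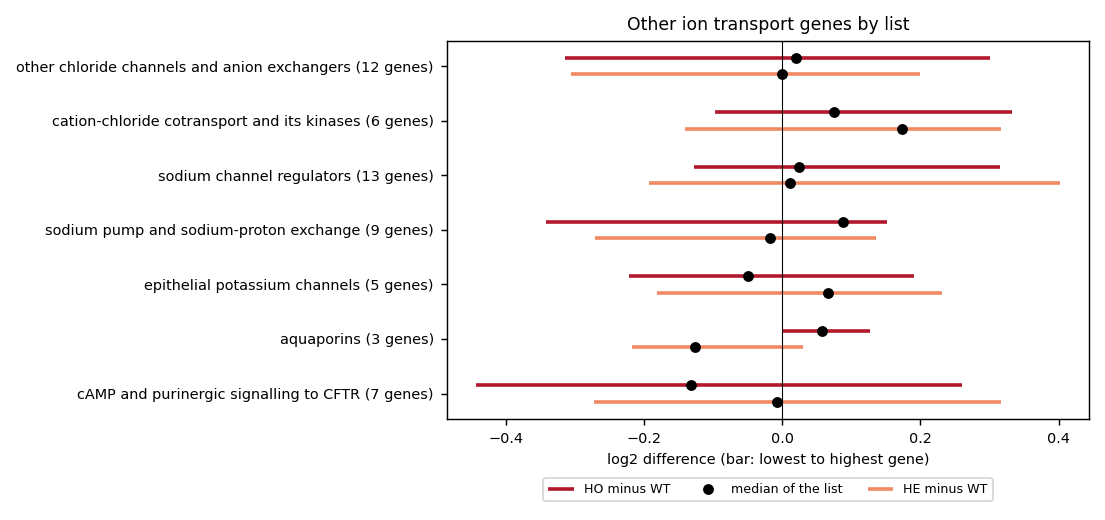
Log2 differences of the genes in 7 lists of ion and water transport, HO minus WT above HE minus WT in each list, with bars from the lowest to the highest gene and a point at the list's median. Every list spans 0 in HE minus WT, and the medians lie between -0.13 and 0.17.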

How the data were processed

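Lung total RNA of 9 samples was measured on Affymetrix mouse arrays, per the labels, and grouped by title into HO, HE and WT (n = 3 each). Values are linear intensities as deposited, with a mean of 1500 on each array after trimming 2% at both ends, so the authors had scaled the arrays. What software summarised the probes was not given in the sources used here.

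Values under the 5th percentile (25.5) were set to it, and log2 was taken. The 64 control probe sets and any whose average log2 fell below the 40th percentile (8.90) were left out, leaving 13576. Group means were fitted to all 9 arrays with limma 3.58.1 in R 4.3.3 (lmFit and eBayes, 6 residual degrees of freedom), with Benjamini-Hochberg adjustment over the 13576 and a call at 0.05. Errors of log2 differences are moderated SE. The same code was tested on simulated data, with planted shifts larger than any member difference and noise independent between arrays. That test does not cover differences of the members' size or arrays that deviate together. Arrays have no count depth, so their number limits precision: the median SE of a difference was 0.16.

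In the platform annotation 20393 probe sets had 1 symbol, 691 had several and were not named, and 1606 are unnamed here. The rule named every member with all its probe sets, Sftpc, up to 3 genes of lowest unadjusted p per list and comparison, and the 5 genes closest to Cftr; the text gives a selection of the list genes. The members and lists were chosen with earlier results of these data known. Correlations used exact two-sided permutation of pairings, adjusted over 13 pairs. The 2 arrays farthest from the median were chosen on the first-named probe set of each pair. They can thus differ between pairs, and extreme values of the second probe set may remain. Same-numbered arrays of HO and WT deviated together from their group means (r of 0.19, 0.14 and 0.28 for numbers 1, 2 and 3), which pairs them by the criterion of r over 0.1, although the labels do not say what the number marks. For HE with WT r was 0.30, 0.05 and 0.04, and for HO with HE 0.16, 0.15 and 0.03. Differently numbered arrays of HO and WT had r from -0.18 to -0.03. Deviations cancel within a group, so a positive r at the same number forces a negative one elsewhere. These negative values are thus no further evidence of pairing. HE replicate 2 with WT replicate 3, of different numbers, had r = 0.13, also over the criterion. Alternatives were other scalings, filters and floors, the replicate number as a block, other eBayes settings, HO replicate 2 counted as HE, and each array left out.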

Additional observations from a re-analysis of the deposited data

How the results depend on the processing

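Across 1007 member differences recomputed under the alternatives, 966 kept their sign and 0 passed an adjusted p of 0.05. The 41 that changed sign had differences of at most 0.43 before. Many of the 1007 could not change: other filters, the trended and robust eBayes and the replicate block return the same difference. So does leaving out an array of a group not compared. Of the 1007, 0 moved by over 1 within-group SD, but leaving out 1 of 3 arrays cannot move a difference further than that. The counts of kept signs and of moves are thus no measure of robustness. Without WT replicate 1 there was 1 call among all probe sets for HO minus WT, HE minus WT, the mean of both minus WT and the F test over genotypes, so leaving out each array in turn gave 0 to 1 calls. Without a filter there were 2 calls for HE minus WT, 2 for HO minus HE and 2 in the genotype F test. The F test over replicate numbers had 2 calls, 1 after quantile normalization, median centring, a filter at the 60th percentile or without a genotype term, 0 without a filter or with HO replicate 2 as HE, 5 with a trended and robust eBayes, and 0 to 1 with each array left out. The replicate number as a block left 0 calls at an adjusted p of 0.05 in every difference and changed no such call of a member, and it put other members below an unadjusted p of 0.05, as given above. The 610 probe sets below an unadjusted p of 0.05 for HO minus WT, 229 higher and 381 lower, became 286 and 289 after quantile normalization and 427 and 211 after median centring. That count was 1225 without a filter, 378 with a filter at the 60th percentile, 369 with HO replicate 2 as HE, 397 without HO replicate 2 and 1001 without HO replicate 3. Without a filter and with the stricter filter the count was 992 and 260 for HE minus WT (main 422), 783 and 216 for HO minus HE (348), 1191 and 352 for both minus WT (569) and 957 and 232 for the genotype F test (420). Without HO replicate 3 it was 661 for HO minus HE and 663 for the F test, and without HE replicate 1 it was 527 for HO minus HE. Higher and lower counts under the deposited scaling, quantile normalization and median centring were 161 and 261, 206 and 222, and 244 and 177 for HE minus WT. No cause was tested. With 3 arrays per group, a typical SE of 0.16 and 7 of 9 Clcn2 arrays at the floor, small differences and Clcn2 itself could not be resolved.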
